A study of Homo sapiens with 4 samples.

Results

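The zinc finger gene clusters on 19p12 and 19p13.2 were examined as candidate sites of the Argonaute proteins AGO1 and AGO2 on RNA in HEK293, a human embryonic kidney cell line. The members were all regions of the deposited PAR-CLIP list that started on chromosome 19 between 11400000 and 12800000 (19p13.2) or between 19700000 and 24500000 (19p12) of hg19, on either strand. This gave 961 of 211947 regions, with 591 on 19p12 and 370 on 19p13.2. They made up 0.453% of all regions and 6.95% of the 13837 regions on chromosome 19.

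In PAR-CLIP, cells take up a uridine analogue that crosslinks to bound protein under long-wave ultraviolet light, the protein of interest is precipitated, and the RNA attached to it is sequenced. The series held 3 AGO1 libraries, from cells given 200 µM 4-thiouridine for 16 h and precipitated through a FLAG tag on the protein, and 1 AGO2 library, from cells given 100 µM for 16 h and precipitated with antibody 11A9 to AGO2. Crosslinking was at 365 nm in both, all cells were HEK293, and no control library is among the samples. The AGO1 lines stably expressed the protein with a His/FLAG/HA tag, and the labels of the AGO2 library mention none, although the series text has tagged lines for both. The list gave 1 score per region for pooled libraries, so no value below has replicates, the depth per library is unknown, and AGO1 could not be set against AGO2.

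Argonaute proteins carry microRNAs, which pair mainly through their seed, bases 2 to 8, with matching stretches of target RNAs. Zinc finger genes of the C2H2 kind encode DNA-binding proteins built from finger after finger, each unit 28 residues long and so taking 84 nt of coding sequence. On 19p12 and 19p13.2 such genes lie side by side, and many also encode a KRAB domain, which recruits silencing machinery. Because the fingers are repeats, a seed match in one finger can recur in the next, and the coding repeats of this gene family are known for repeated matches to the miR-181 family. The mature sequences of that family are shown for this reason, from RefSeq (GRCh38.p14), with the seed in capitals. All share 1 seed.
hsa-miR-181a-5p: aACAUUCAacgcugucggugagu
hsa-miR-181b-5p: aACAUUCAuugcugucggugggu
hsa-miR-181c-5p: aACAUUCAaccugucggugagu
hsa-miR-181d-5p: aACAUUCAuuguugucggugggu
Sequences of the regions themselves were not analysed here, so whether any region holds a match to this seed was not examined.

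A list of zinc finger genes known to lie in these bands was matched by name to RefSeq. All 25 genes listed for 19p13.2 and all 30 listed for 19p12 were found as protein-coding genes of chromosome 19. In the order of the RefSeq table, 25 of the 29 protein-coding genes between ZNF653 and ZNF791 on 19p13.2 had zinc finger symbols. On 19p12, 34 of the 36 between ZNF253 and ZNF254 did, among them ZNF91, ZNF43 and ZNF208. The 19p13.2 interval also held genes of other families, such as ACP5, a phosphatase, and ECSIT, an adaptor protein. An hg19 annotation was not used here, so regions are named by position and not by gene, and the label of the clusters was not checked gene by gene. Any genes between those end genes and the bounds of the clusters were not counted. The counts thus do not say what share of members lies in zinc finger genes.

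Regions were patchy on 19p12 and denser on 19p13.2. The density was 123 regions per Mb over the 4.8 Mb of 19p12 and 264 per Mb over the 1.4 Mb of 19p13.2. Of 48 windows of 100 kb on 19p12, 11 held no region, whereas all 14 windows on 19p13.2 held at least 1. Windows with at least 1 region held a median of 7 regions on 19p12 and 21 on 19p13.2. The median was 43 in 4 zinc finger blocks of 19q, bounded below. It was 19.5 over the rest of chromosome 19 and 4 over the other nuclear chromosomes. By this measure 19p12 was thinly filled beside other parts of chromosome 19, and not beside the other chromosomes. Empty windows were not counted outside the clusters. The 5 fullest windows held 49.4% of the 19p12 regions (292) and 59.7% of the 19p13.2 regions (221). The fullest window of all, from 21300001 to 21400000 on 19p12, held 111 regions, all on the plus strand. On 19p13.2 the fullest ran from 12700001 to 12800000 with 71 regions, 49 on the plus and 22 on the minus strand.

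Long stretches of 19p12 were nearly empty. The longest stretches with no region on either strand were 278 kb (20369788 to 20647529), 267 kb (20715079 to 20982253) and 262 kb (22051463 to 22313144). From 22000001 to 23300000, 13 windows that make up 27.1% of the cluster held 17 regions, 2.88% of its members, and the highest score among them was 9. On 19p13.2 the longest such stretch was 85.9 kb (11950011 to 12035896). Whether genes in the empty stretches were expressed was not measured.

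The bounds cut through no dense stretch on 19p12. The nearest region before its lower bound lay 53261 nt away and the first inside lay 27030 nt past it. The last region inside, at 24330179 to 24330202, was followed by none until 27811368. At the upper bound of 19p13.2, by contrast, the last member, at 12799908 to 12799965 on the minus strand with a score of 2, had its next neighbour on the same strand at 12800069 to 12800090, with a score of 3.

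**Figure D1:**
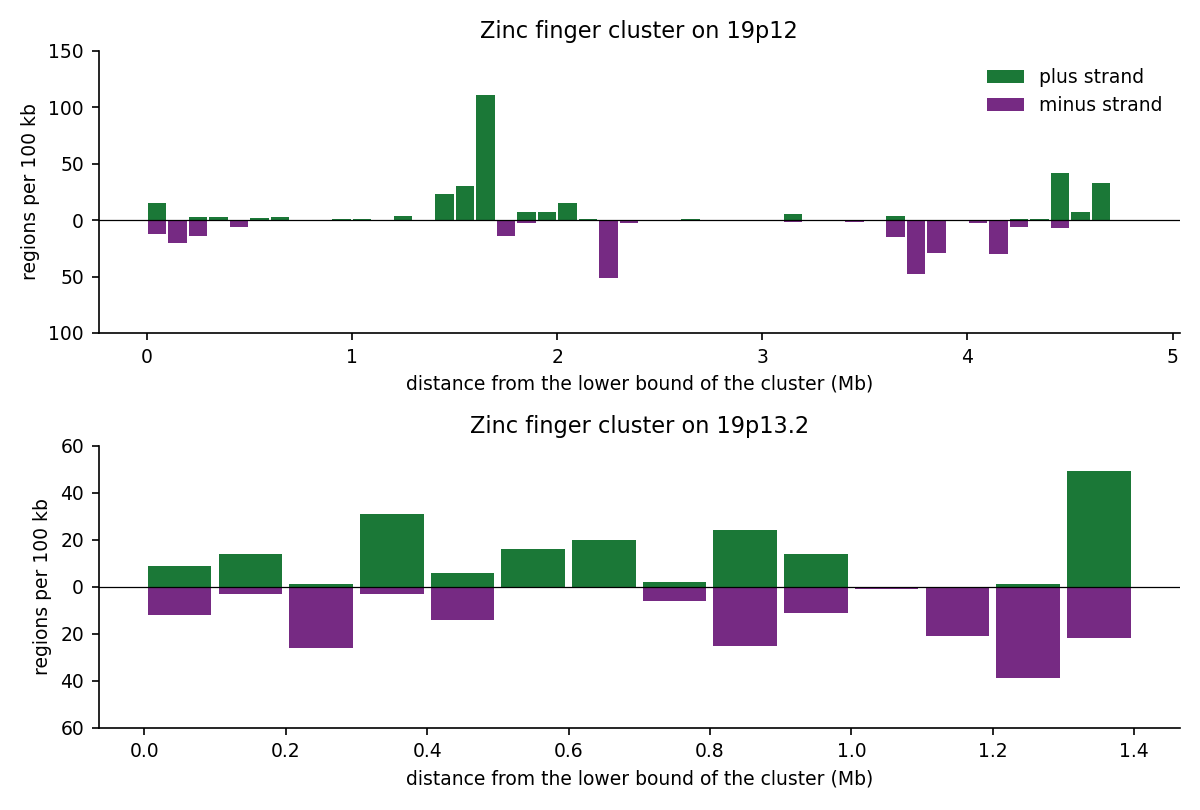
Number of regions per window of 100 kb (vertical axis) against the distance from the lower bound of the cluster in Mb, for 19p12 (top) and 19p13.2 (bottom). Plus-strand regions point up and minus-strand regions down. The tallest bar, 111 plus-strand regions, lies on 19p12, and most windows of 19p12 lean to 1 strand.

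Regions of 19p12 lay largely in blocks of 1 strand, and those of 19p13.2 were more mixed. Of the 16 windows on 19p12 with at least 10 regions, 11 had regions on a single strand, and on 19p13.2 3 of 12 did. Such windows numbered 23 of 55 (41.8%) in 4 other zinc finger blocks of chromosome 19, on 19q, 72 of 234 (30.8%) on the rest of chromosome 19 and 2710 of 5651 (48.0%) on the other nuclear chromosomes. The blocks of 19q were set in whole Mb, from 37 to 39, 44 to 45, 52 to 54 and 57 to 59 Mb, on bands 19q13.12, 19q13.31, 19q13.41 and 19q13.43. Windows with at least 90% of their regions on 1 strand numbered 11 of 16 on 19p12 (68.75%) and 6 of 12 on 19p13.2. They were 65.5% in the blocks of 19q, 49.1% on the rest of chromosome 19 and 68.5% on the other nuclear chromosomes. By this looser count, 19p12 lay close to the blocks of 19q and to the other nuclear chromosomes. The strand changed between neighbouring regions along the chromosome in 25 of 590 steps on 19p12 (4.24%, Wilson 95% interval 2.89 to 6.18) and in 30 of 369 on 19p13.2 (8.13%, 5.75 to 11.4), beside 4.11% (3.52 to 4.78) in the blocks of 19q, 6.79% over the rest of chromosome 19 and 6.89% over the other nuclear chromosomes. Over each cluster as a whole the strands were close to even, with 320 plus-strand regions on 19p12 (54.1%, 50.1 to 58.1) and 187 on 19p13.2 (50.5%, 45.5 to 55.6). No region of either cluster lay within 100 nt of a region on the opposite strand, and of 961 regions such a count allows a share of up to 0.398% by the Wilson interval. That share was 1.65% (1.29 to 2.10) in the blocks of 19q, 1.08% (0.889 to 1.32) over the rest of chromosome 19 and 0.770% (0.733 to 0.810) over the other nuclear chromosomes. Within 1000 nt, it was 1.02% on 19p12 (0.466 to 2.20) and 3.51% on 19p13.2 (2.06 to 5.92). The other sets had 5.15%, 5.94% and 4.12%, in the same order. Among 23 chromosomes, counted outside both clusters, it ranged from 1.81% on X to 6.71% on chromosome 17, a range that holds 19p13.2. Wilson intervals here and below cover counting error only, and they are too narrow where regions of 1 transcript depend on each other. Differences between the clusters and the rest have no replicates to test over and are given as descriptions.

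Scores were low in both clusters. The score is a whole number that the authors gave each region, and what it counts is not stated. The median was 2 on 19p12 (interquartile range 2 to 4) and 2 on 19p13.2 (2 to 4), against 3 on the other nuclear chromosomes (2 to 5) and on the rest of chromosome 19 (2 to 5). Scores of 10 or more were held by 36 regions of 19p12 (6.09%, 4.43 to 8.32) and 26 of 19p13.2 (7.03%, 4.84 to 10.1), together 62 (6.45%, 5.07 to 8.18). That share was 13.44% (12.4 to 14.6) in the 4 blocks of 19q, 12.7% (11.99 to 13.36) over the rest of chromosome 19 and 10.9% (10.8 to 11.0) over the other nuclear chromosomes. Outside both clusters, the lowest share on any of 23 chromosomes, the autosomes and X, was 8.08% on chromosome 4 and the highest was 12.9% on chromosome 17. Both clusters thus lay below the range of whole chromosomes, although the interval of each reached into it. The chromosomes held from 2523 to 23938 regions, and no stretches of like size to the clusters were compared. Among regions narrower than 50 nt the share was 4.39% (3.20 to 5.99) in both clusters together. The 5.96% over the rest of chromosome 19 and the 5.45% over the other nuclear chromosomes lay within that interval. The 6.57% in the 4 blocks of 19q lay above it.

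The lower scores came with more regions of score 2 and not with more of score 1. Score 2 was held by 388 of the 961 regions (40.4%, 37.3 to 43.5), against 31.7% (30.8 to 32.7) over the rest of chromosome 19 and 35.5% (35.3 to 35.7) over the other nuclear chromosomes. Score 1 was held by 135 (14.0%, 11.99 to 16.4), close to the 14.4% and 14.1% of those sets. Scores above 20 were held by 16 regions (1.66%, 1.03 to 2.69), against 4.43% (4.02 to 4.87) and 3.70% (3.61 to 3.78). Together the members carried a summed score of 3852, 4.92% of that on chromosome 19, although they were 6.95% of its regions. The sources used here do not say how reads that match several near-identical zinc finger genes were counted, and the part of such reads in these scores was not tested.

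**Figure D2:**
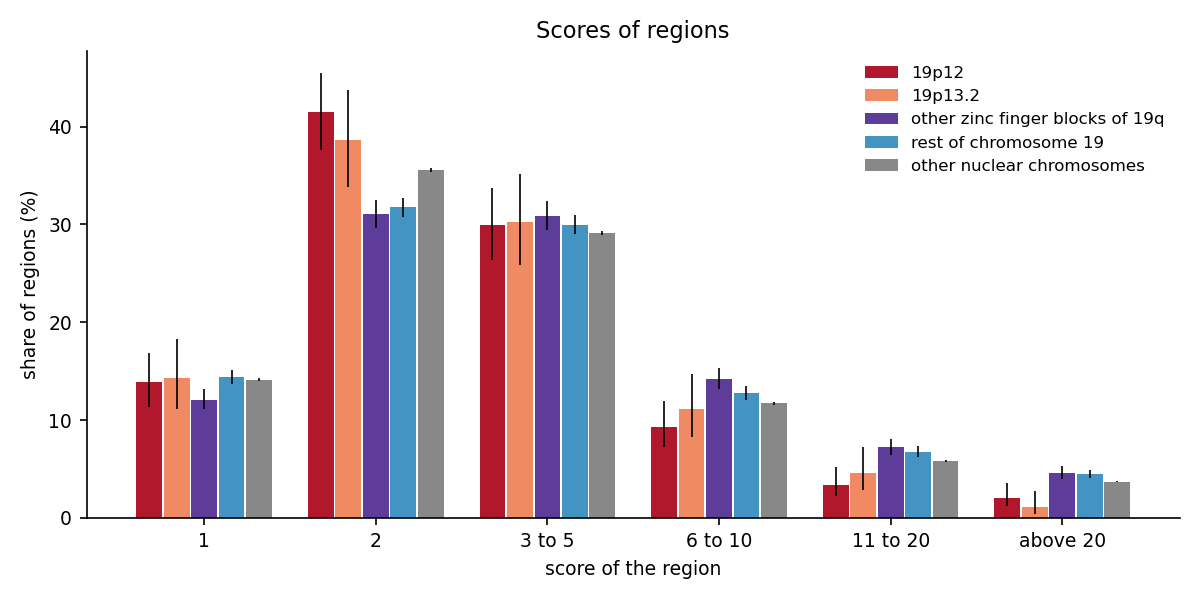
Share of regions (%, vertical axis, from 0) in each class of score (horizontal axis) for 19p12, 19p13.2, 4 other zinc finger blocks of 19q, the rest of chromosome 19 and the other nuclear chromosomes. Error bars are Wilson 95% intervals. Both clusters have the highest bars at score 2 and the lowest at scores of 11 to 20 and above 20.

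Regions in the clusters were about as wide as elsewhere at scores of up to 10, and the few with higher scores were narrower. The median width was 31 nt on 19p12 (interquartile range 26 to 40) and 33 nt on 19p13.2 (26 to 42), against 32 nt over the other nuclear chromosomes (25 to 43). At scores above 10 the median was 43 nt on 19p12 (32 regions) and 48 nt on 19p13.2 (21 regions). It was 60 nt over the rest of chromosome 19 (1013 regions) and 58 nt over the other nuclear chromosomes (18896 regions). Scores within this class were not matched between the sets. At scores of 6 to 10 the medians were 40 and 38 nt in the clusters, against 41 and 42 nt. The widest member measured 110 nt. Only 3 of the 961 members were wider than 100 nt (0.312%, 0.106 to 0.914), beside 2.08% (1.80 to 2.39) on the rest of chromosome 19 and 1.71% (1.66 to 1.77) over the other nuclear chromosomes. Among the 23 chromosomes this share was lowest on chromosome 4 (1.02%) and highest on chromosome 21 (2.38%). The 1-nt position that the list marks inside each region stood, on a scale from 0 at the lower to 1 at the upper edge, at a mean of 0.445 on the plus and 0.411 on the minus strand of both clusters, near the 0.453 and 0.415 of the other nuclear chromosomes.

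The highest score of either cluster stood alone. On the minus strand of 19p12, a region of 67 nt at 24184087 to 24184153 had a score of 192. It was followed on 19p12 by scores of 42 (21243616 to 21243649, plus strand, 34 nt), 37 (21562552 to 21562584, minus strand, 33 nt) and 36 (23924529 to 23924555, minus strand, 27 nt). The other 6 regions of the run that held the score of 192 reached at most 5, and the nearest of them lay 224 nt away. The region of score 37 had no other region within 50505 nt on its strand, but a plus-strand region lay 447 nt from it. Without the region of score 192, the mean score of 19p12 was 3.80, beside 4.12 with it, 5.78 over the rest of chromosome 19 and 5.38 over the other nuclear chromosomes.

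On 19p13.2 the highest scores were 46 (12780189 to 12780236, minus strand, 48 nt), 29 (12687866 to 12687895, minus strand, 30 nt), 27 (11665046 to 11665114, minus strand, 69 nt) and 21 (12744319 to 12744368, plus strand, 50 nt). Each of these 4 belonged to a run of 9 to 41 regions. In those runs the next highest scores were 8, 6, 11 and 17, in the same order. The highest of 19p13.2 were thus single peaks over low surroundings, except in the run of 41.

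Members gathered in runs, as regions did elsewhere. A same-strand neighbour no more than 100 nt away was found for 303 of 591 regions of 19p12 (51.3%, 47.2 to 55.3) and for 208 of 370 of 19p13.2 (56.2%, 51.1 to 61.2). This share was 66.2% (64.7 to 67.7) in the 4 zinc finger blocks of 19q, 57.6% (56.6 to 58.6) over the rest of chromosome 19 and 53.0% (52.8 to 53.2) over the other nuclear chromosomes. Solitary regions, more than 10000 nt from the next on the strand, were 6.26% of 19p12 (4.58 to 8.51) and 3.51% of 19p13.2 (2.06 to 5.92), beside 1.41% (1.08 to 1.84) in the blocks of 19q, 4.01% (3.62 to 4.43) over the rest of chromosome 19 and 8.67% over the other nuclear chromosomes. The share on 19p12 was thus above that of the rest of chromosome 19 and below that of the other chromosomes.

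When members on a strand were joined across gaps of at most 1000 nt, 286 runs resulted, and 172 of them were single regions. Runs of at least 10 regions, called arrays, numbered 10 on 19p12 and 12 on 19p13.2 and held 44.3% (40.4 to 48.4) and 49.5% (44.4 to 54.5) of the members. In the 4 zinc finger blocks of 19q, arrays held 68.4% (66.9 to 69.9), and over the other nuclear chromosomes 39.9% (39.7 to 40.1). The arrays of 19p12 had a median span of 4400 nt (interquartile range 3170 to 5055.5), longer than the 1934 nt of 19p13.2. The median was 3532 nt (2799 to 5076.5) in the blocks of 19q, a range that overlaps that of 19p12. Over the other nuclear chromosomes it was 2831 nt. Neither cluster had an array as large as the 174 regions of the largest one in the 4 blocks of 19q.

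The largest array of 19p12 ran over 9595 nt of the plus strand, from 21299832 to 21309426, with 62 regions. Its scores ran from 1 to 24 with a median of 3, its summed score was 265, and 4 regions reached a score of 10. Its regions covered 25.01% of its span. The highest scores, 24 and 22, began 150 and 526 nt from its upper edge, which is the 3′ side on that strand. In that array, low-score regions were spread over the whole span.

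The next array, on the minus strand from 23397901 to 23406796, had 53 regions over 8896 nt. It had the largest summed score of any array in either cluster, 325, with a median score of 4, a highest score of 26, and 8 regions with a score of at least 10. Its 3 highest scores, 26, 21 and 20, began 4773, 4642 and 3655 nt from its lower edge, toward the middle of the array and not at an end. The largest array of 19p13.2, on the plus strand from 12738538 to 12744621, had 41 regions over 6084 nt, a summed score of 230, a median score of 4 and a highest score of 21. It too had 8 regions with a score of at least 10, and these were scattered along its span.

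**Figure D3:**
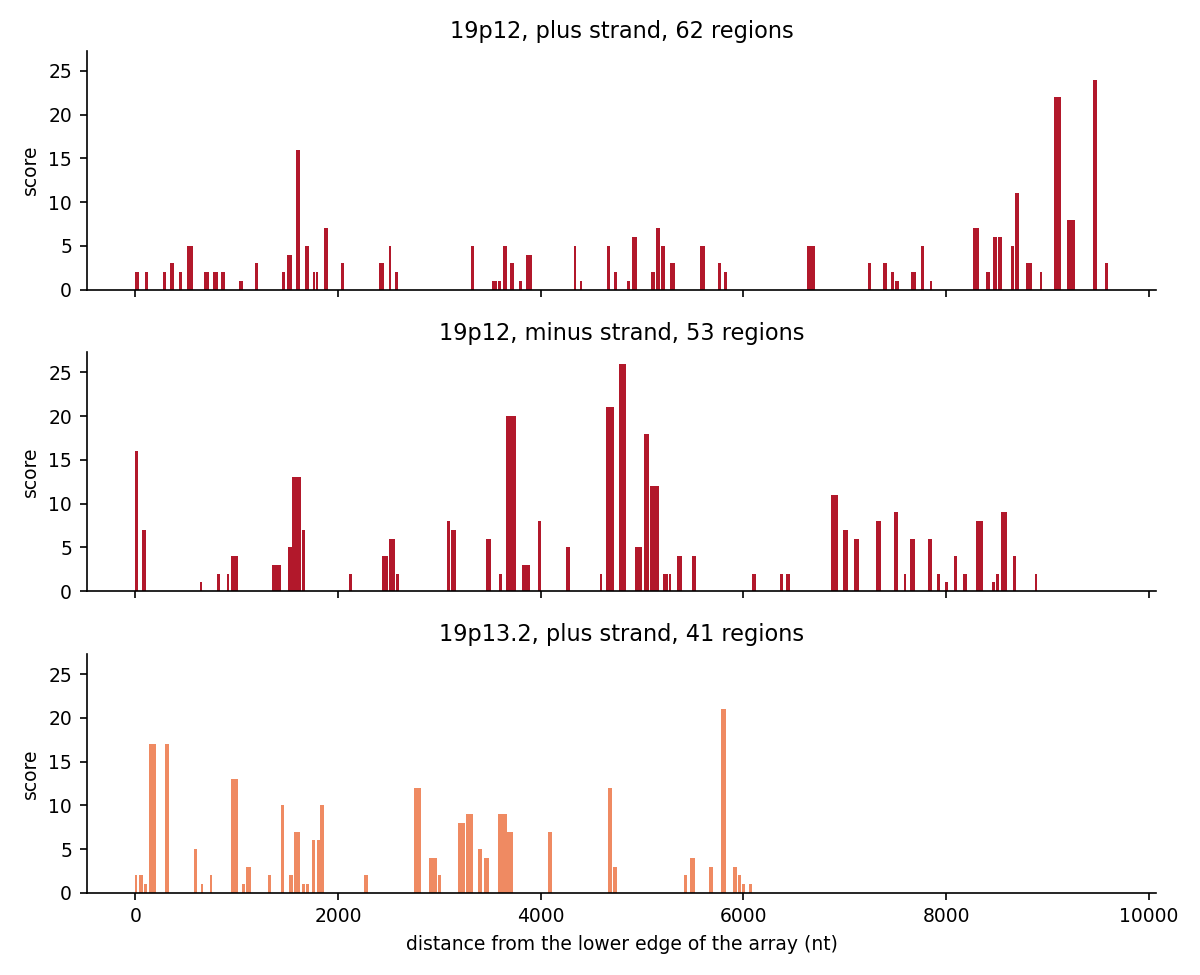
Score of each region (vertical axis) in the 3 largest arrays, against the distance in nt from the array's lower edge; the width of a bar is the width of the region. The arrays hold 62, 53 and 41 regions, and no score passes 26.

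The other arrays of 19p12 had fewer regions. On the plus strand, 23 regions between 24309466 and 24312748 had a highest score of 7, and 21 regions between 21365433 and 21370581 had a highest score of 21. On the minus strand, 22 regions between 21908053 and 21910423 had a highest score of 8 and covered 32.0% of their span, and 19 regions between 23834211 and 23837342 had a highest score of 13. The remaining 4 arrays held 14 to 17 regions each, with highest scores from 10 to 42. The array with the score of 42, 17 regions on the plus strand from 21240508 to 21245282, thus passed the 24 and 26 of the largest arrays, and its median score was 4. Of the 10 arrays, 5 lay on each strand.

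On 19p13.2, further arrays lay on the plus strand from 12296949 to 12300690 (24 regions, highest score 13), from 11727645 to 11730890 (17 regions, highest score 11), from 11942959 to 11944962 (14 regions, highest score 8) and from 12059607 to 12062670 (12 regions, highest score 20). An array of 12 regions on the minus strand, from 11663860 to 11665114, was the most closely packed of the 22, with 43.6% of its span covered, and held the region of score 27. The remaining 6 arrays, all on the minus strand, held 10 or 11 regions each, and their highest scores ran from 4 to 29. Median scores of single arrays lay between 2 and 4 in both clusters.

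Spacing at the length of a zinc finger repeat was measured on pairs of regions of 1 strand. For pairs 42 to 461 nt apart, the share was taken whose distance fell within 7 nt of a multiple of 84 nt, over 5 multiples. Distances with no preferred length would give 15 of 84, or 17.9%. Taken between the 1-nt inner positions, the share was 21.3% on 19p12 (166 of 779 pairs, Wilson 95% interval 18.6 to 24.3) and 18.7% on 19p13.2 (95 of 508, 15.5 to 22.3), together 20.3% (18.2 to 22.6). On 19p12, inner positions showed no excess at a single repeat, with 17.6% (33 of 188 pairs), and little at 3 repeats, with 18.9% (30 of 159), against 22.6% (36 of 159) at 2 and 24.1% (32 of 133) at 5, while 35 of 140 pairs were near at 4. The share over all 5 multiples was 19.99% (19.1 to 20.9) in the 4 zinc finger blocks of 19q together, and single blocks came close to 19p12 or matched it, with 21.4% on 19q13.41 (144 of 672, 18.5 to 24.7), 20.9% on 19q13.12, 19.8% on 19q13.43 and 18.4% on 19q13.31. It was 18.0% (17.3 to 18.7) over the rest of chromosome 19 and 17.9% (17.8 to 18.1) over the other nuclear chromosomes. Over the 22 chromosomes other than 19, autosomes and X, it ranged from 17.5% to 18.7%. Each of these had at least 3474 pairs, and no stretches of like size to the clusters were compared. A region enters many pairs, so these intervals are too narrow, and no test was made. Even so, for both clusters together the interval of the share over an even spread reached below 1 within 4 nt (1.07, 0.921 to 1.25), at scores of at least 3 (1.09, 0.882 to 1.32) and between adjacent regions only (1.08, 0.910 to 1.28). For 19p12 alone these 3 settings gave 1.10 (0.908 to 1.33), 1.10 (0.844 to 1.41) and 1.15 (0.923 to 1.41). The interval of 19p12 stayed above 1 over 1 to 10 repeats (1.22, 1.10 to 1.34) and without the largest array of each cluster (1.20, 1.02 to 1.39).

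Taken between the midpoints of regions, the spacing stood out on 19p12. The share was 26.4% there (207 of 784 pairs, 23.4 to 29.6), against 19.1% on 19p13.2 (98 of 514, 15.9 to 22.7). It was 19.9% (19.02 to 20.7) in the blocks of 19q, from 18.4% on 19q13.31 to 21.6% on 19q13.41 (148 of 685, 18.7 to 24.8), 18.3% (17.7 to 19.03) over the rest of chromosome 19 and 18.0% (17.9 to 18.2) over the other nuclear chromosomes. Over the 22 chromosomes other than 19 it ranged from 17.3% on chromosome 13 to 19.1% on chromosome 21. Here too, whole chromosomes and no stretches of like size were compared. With midpoints, unlike inner positions, the share on 19p12 lay above an even spread at each of the 5 multiples, with values of 24.1%, 28.7%, 24.8%, 27.2% and 28.2% at 1, 2, 3, 4 and 5 repeats. On 19p13.2 these were 23.4%, 11.3%, 17.6%, 20.7% and 20.9%, so that the share at 2 repeats lay below an even spread. The midpoint was 1 of the alternatives to the inner position, and it is described in full because it moved the value most.

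**Figure D4:**
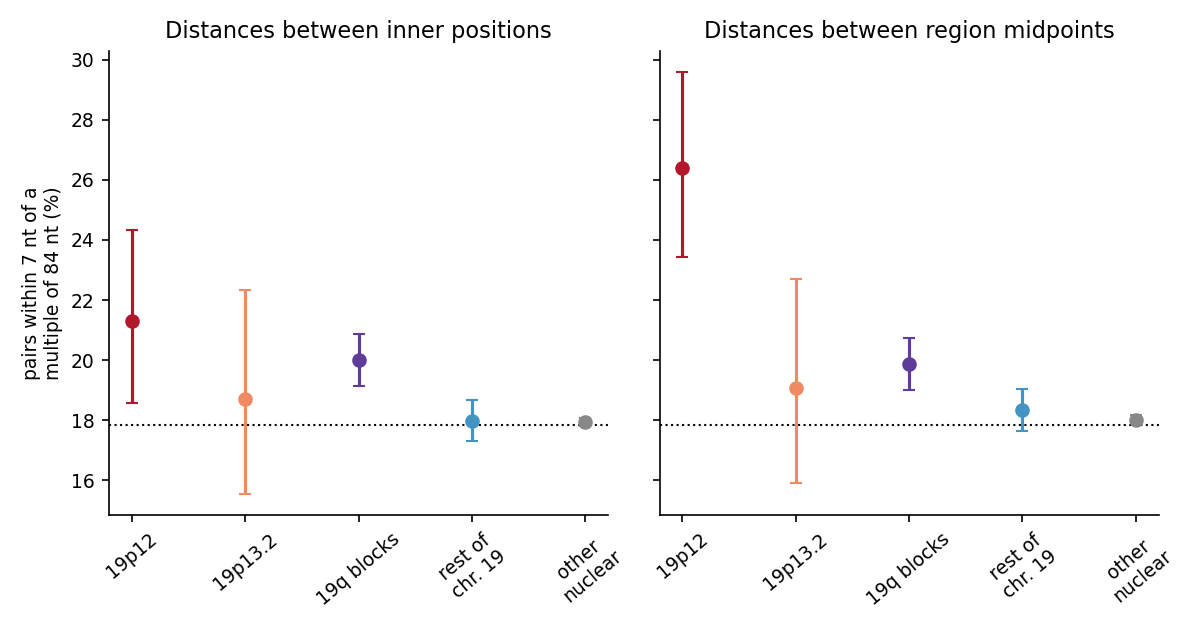
Share of same-strand pairs within 7 nt of a multiple of 84 nt (%, vertical axis, not starting at 0) for 19p12, 19p13.2, the 4 zinc finger blocks of 19q, the rest of chromosome 19 and the other nuclear chromosomes, from inner positions (left) and from midpoints (right). Bars are Wilson 95% intervals and the dotted line is the 17.9% of an even spread; 19p12 is highest in both panels.

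The length of 84 nt was also compared with other lengths. The same share was computed for each of 61 whole periods from 60 to 120 nt and divided by that of the other nuclear chromosomes. With midpoints, the ratio on 19p12 was highest at 84 nt, at 1.47. On 19p13.2 it was highest at 65 nt (1.12), and 84 nt, at 1.06, ranked 11. In the blocks of 19q the highest ratio was 1.12, at 85 nt, and over the rest of chromosome 19 it was 1.04, at 74 nt. With inner positions, 84 nt again ranked 1 on 19p12 (1.19) and ranked 2 in the blocks of 19q (1.11), where 83 nt was highest (1.13). On 19p13.2 the inner positions gave 84 nt rank 17 (1.04), and the highest ratio, 1.20, stood at 87 nt, close to the 1.19 of 19p12. The ratio was added after values were seen. The measure planned at the outset was the mean vector of inner-position distances folded at each period. On 19p12 it was longest at 91 nt, at 0.101, beside 0.0712 at 84 nt.

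**Figure D5:**
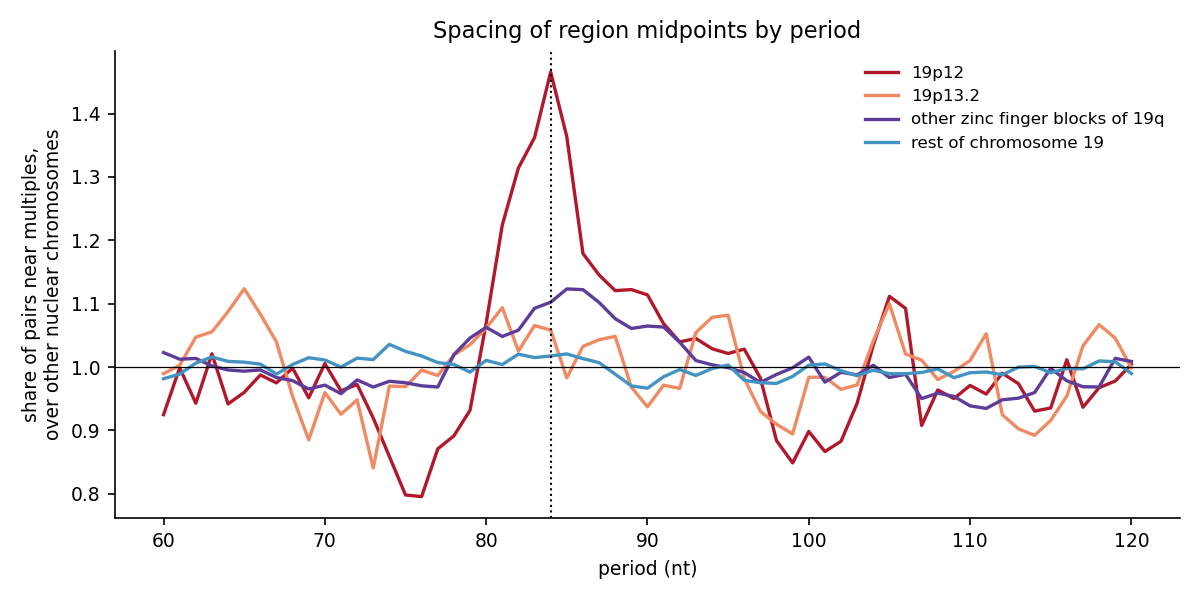
Share of same-strand midpoint pairs near multiples of a period, divided by the share over the other nuclear chromosomes (vertical axis, not starting at 0), against the period in nt, for 19p12, 19p13.2, the zinc finger blocks of 19q and the rest of chromosome 19. The dotted line marks 84 nt, where the 19p12 curve reaches 1.47, its highest value.

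With midpoints, the spacing on 19p12 did not rest on 1 array. Of its 10 arrays, 9 had a midpoint share above 17.9%, the exception being the array of 22 regions from 21908053 to 21910423, with 16.7% of 72 pairs. The largest array had 31.4% (55 of 175 pairs) and the next 27.4% (34 of 124). Without the largest array the share of 19p12 was 24.96%, and without both it was 24.3%. On 19p13.2, 8 of 12 arrays lay above 17.9%, and they ranged from 6.90% (2 of 29 pairs) to 35.7% (5 of 14). With inner positions, 8 of the 10 arrays of 19p12 lay above 17.9%, in a range from 10.0% to 30.0%, and 7 of the 12 of 19p13.2. The same count was not made for arrays elsewhere, so how often an array lies above 17.9% outside the clusters is not known here. The pairs of single arrays are few, 14 to 175, and single values are correspondingly uncertain.

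Unbroken chains of regions at finger length were too few to compare closely. Among the 59 runs of both clusters with at least 4 regions, none held a chain of 4 inner positions with each step within 7 nt of 84 nt, and the longest chain had 3. By the Wilson interval, 0 of 59 allows a share of up to 6.11%, which includes the 1.24% (133 of 10723 runs) over the other nuclear chromosomes. With midpoints, 2 of the 59 runs held such a chain (3.39%, 0.935 to 11.5), beside 165 of 10723 (1.54%) over the other nuclear chromosomes. In the blocks of 19q, 12 of 170 runs held one by either measure (7.06%, 4.08 to 11.9). For inner positions, that 7.06% lay above the 6.11%, although its interval reached below it. In the largest array of 19p12, the median distance between neighbouring inner positions was 95 nt (interquartile range 70 to 167), and 9 of 61 such steps fell within 7 nt of 84 nt.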

How the data were processed

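Per the submitters' processing notes, reads were mapped with BWA 0.5.8c and hg19. The deposited file was 1 list of regions whose track name, per the file headers, includes hg19, AGO_good and a filter named with 0.05, while the sources used here name neither the region caller nor the libraries pooled. The score deposited by the authors is a whole number per region. The other columns, as deposited, are start, end and a 1-nt inner position, printed counting from 1.

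Each measure was computed over all regions and is given for the members. Runs were ended at the bounds of a cluster. Named were the 6 largest arrays and 4 highest scores per cluster. The planned seed, gene part and protein analyses were not run, for want of hg19 sequence, annotation and proteins in the files used. Members, gene list and the blocks of 19q were chosen with earlier results of these data known; ladders and the period ratio were added after values were seen. The functions were checked on 2800 simulated regions and on a separate set of randomly placed positions. All 8 checks returned what was simulated, the one on random positions within a set tolerance. The software was Python 3.11.15 with pandas 2.3.3, numpy 2.4.6, matplotlib 3.10.9 and scipy 1.17.1.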

Additional observations from a re-analysis of the deposited data

How the results depend on the processing

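Of 23 settings listed at the outset, 3 were not run, those on seed matches and gene parts. For both clusters together, 27 alternatives to 11 results were run, 6 of them chosen after seeing the data. Of these, 16 stayed within the 95% interval or, for counts, within 1.5 times or, for the best period, at the same value. Some alternatives changed what was measured, such as scores of at least 5 in place of 10. The tally is therefore no measure of robustness. With scores of at least 3 there were 438 regions, a median width of 36 nt (39 nt on the rest of chromosome 19), a same-strand neighbour within 100 nt for 43.8% and 9 arrays. The neighbour share was 42.4% between inner positions and 48.6% without the largest array of each cluster. Among regions narrower than 50 nt, 4.39% (3.20 to 5.99) had scores of at least 10. That share was 6.57% in the blocks of 19q, 5.96% over the rest of chromosome 19 and 5.45% over the other nuclear chromosomes. Scores of at least 5 were held by 22.1% of all members, against 32.0%, 29.3% and 26.8% in the same order. Over an even spread, the 84-nt share was 1.14 times with inner positions and 1.32 times with midpoints, and 1.07 times within 4 nt. The period with the longest mean vector was 119 nt, near the end of the range as over the other nuclear chromosomes (120 nt). It was 60 nt at scores of at least 3, and the period ratio of inner positions was highest at 87 nt. On 19p12 alone, the mean vector of inner positions was longest at 91 nt (0.101, beside 0.0712 at 84 nt). The mean vector thus did not single out 84 nt. No paired analysis was possible because each region has 1 pooled score.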
